A study of Mus musculus with 2 samples.

Results

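Arginine and polyamine metabolism was followed through 10 genes, Slc7a2, Arg1, Arg2, Nos2, Ass1, Odc1, Oat, Srm, Sms and Sat1, in scRNA-Seq of injured mouse muscle. The genes were found by their symbols among the 32287 features of the count files, and all 10 were present. They had been selected on earlier results from these same counts, in which Arg1 was among the genes that marked an inflammatory group of phagocytes. Their levels by cell type and the ratios between the libraries are therefore given as a description, without a test. Of 46 further genes of the same pathways, 45 were in the files and were used for comparison.

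Cells came from hind limb muscles, TA and GTN by the extract protocol but TA alone by the study's text, at 7 days after bilateral peroneal nerve injury in male mice 10 to 16 weeks old, labelled C57BL/6J, while the study's methods describe a transgenic line in which GFP marks Schwann cells. The TA of 1 group was injected with 2 μg of goat anti-mouse IgG in 10 μL, and that of the other with the same amount of SPP1 neutralizing antibody (SPP1-nAb), starting at the injury and repeated every 2 days. The mice of a group were pooled by the study and both groups carried the same injury, so each condition was 1 library, and treatment cannot be told apart from any other difference between the libraries. The labels call the libraries GFP positive, but the extract protocol sorts both GFP+ and GFP- live cells, and phagocytes made up most of the cells in both.

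Arginine enters cells through cationic amino acid transporters and is then contested by enzymes with different products. Arginases split it into urea and ornithine, whereas inducible nitric oxide synthase turns it into nitric oxide and citrulline. Ornithine feeds either the polyamines, small cations needed for growth and for translation, or proline and glutamate, and macrophages in damaged tissue are known for switching between these routes.

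The IgG library held 97607674 unique molecular identifiers (UMIs) on 23779 barcodes and the SPP1-nAb library 127719916 on 25069, with 163 barcodes occurring in both. Filtering left 21047 IgG cells (median depth 3644 UMIs) and 22282 SPP1-nAb cells (4566 UMIs), in 31 clusters. Clusters were named after marker genes that held none of the 10 genes, and such names carry "-like". The 9 clusters of mononuclear phagocytes (monocytes and macrophages) held 11829 IgG cells, or 56.2%, and 14876 SPP1-nAb cells, or 66.8%. In these clusters all 9 markers of the list for this lineage had UMIs in both libraries. So did all 7 mesenchymal and all 6 endothelial markers, so detection alone does not set the lineage apart. Few or none of the 9 phagocyte markers stood at least 1.5-fold above the other cells in some clusters. These were lipid-handling cells led by Spp1 (2 of 9), inflammatory and monocyte-like cells (1 of 9 each) and macrophage-like cells led by Ear2 (0 of 9). They were named from the markers of their own class. Levels are in CPM, the UMIs of a gene summed over the cells of a cluster and divided by the summed UMIs of all genes there, on the usual scale. All intervals are exact 95% intervals that cover counting error only, not differences between mice. A ratio was set apart when it was at least 1.5-fold with at least 100 UMIs over both sides.

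In GRCm39, Arg1 was on the minus strand at chr10:24791118-24803817, Arg2 on the plus strand at chr12:79177524-79203075 and Odc1 on the plus strand at chr12:17594383-17601507. Promoter sequences from RefSeq, in build GRCm38.p6, matched 5 of the 10 genes (Odc1, Sat1, Ass1, Oat and Sms). The 250 bases before the start are shown for the gene that begins polyamine synthesis, the gene that begins their breakdown and the arginine-forming gene whose ratio between the libraries had the opposite sign. They are chr12:17544623-17544872 on the plus strand for Odc1, chrX:155216450-155216699 on the minus strand for Sat1 and chr2:31470020-31470269 on the plus strand for Ass1. Capitals mark the GC box GGGCGG, read on either strand, and the E-box CACGTG.
Odc1: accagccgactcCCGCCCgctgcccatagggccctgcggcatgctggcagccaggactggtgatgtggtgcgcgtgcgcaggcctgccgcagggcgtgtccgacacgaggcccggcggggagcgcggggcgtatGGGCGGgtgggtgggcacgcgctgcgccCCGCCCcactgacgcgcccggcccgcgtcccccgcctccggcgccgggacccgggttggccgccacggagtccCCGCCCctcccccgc
Sat1: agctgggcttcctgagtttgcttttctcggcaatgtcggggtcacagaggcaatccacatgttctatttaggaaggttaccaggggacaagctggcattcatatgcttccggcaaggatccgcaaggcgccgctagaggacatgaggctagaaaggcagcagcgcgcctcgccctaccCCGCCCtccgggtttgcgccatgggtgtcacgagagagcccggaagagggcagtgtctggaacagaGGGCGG
Ass1: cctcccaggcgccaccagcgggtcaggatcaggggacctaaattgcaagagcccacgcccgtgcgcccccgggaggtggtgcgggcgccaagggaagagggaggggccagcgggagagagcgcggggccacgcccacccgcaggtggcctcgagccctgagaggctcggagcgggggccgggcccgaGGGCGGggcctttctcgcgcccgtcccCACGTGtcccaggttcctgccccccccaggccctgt

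Odc1 held 4 GC boxes in this window and Sat1 held 2, while Ass1 held 1 GC box and an E-box 36 bases before its start. A GC box was found in 32.7% and a CACGTG in 6.02% of the 32851 windows of the same length in the table. The TATA box TATAAA, the cyclic AMP response element TGACGTCA, the C/EBP site TTGCNNAA and the box named CCAAT, searched on both strands, had no match in these 3 windows. The GC content was 59.6% for Sat1 and 75.6% for Ass1, and higher still for Odc1, against a median of 52.4% over all windows. A match is a run of letters and says nothing about binding.

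**Figure D1:**
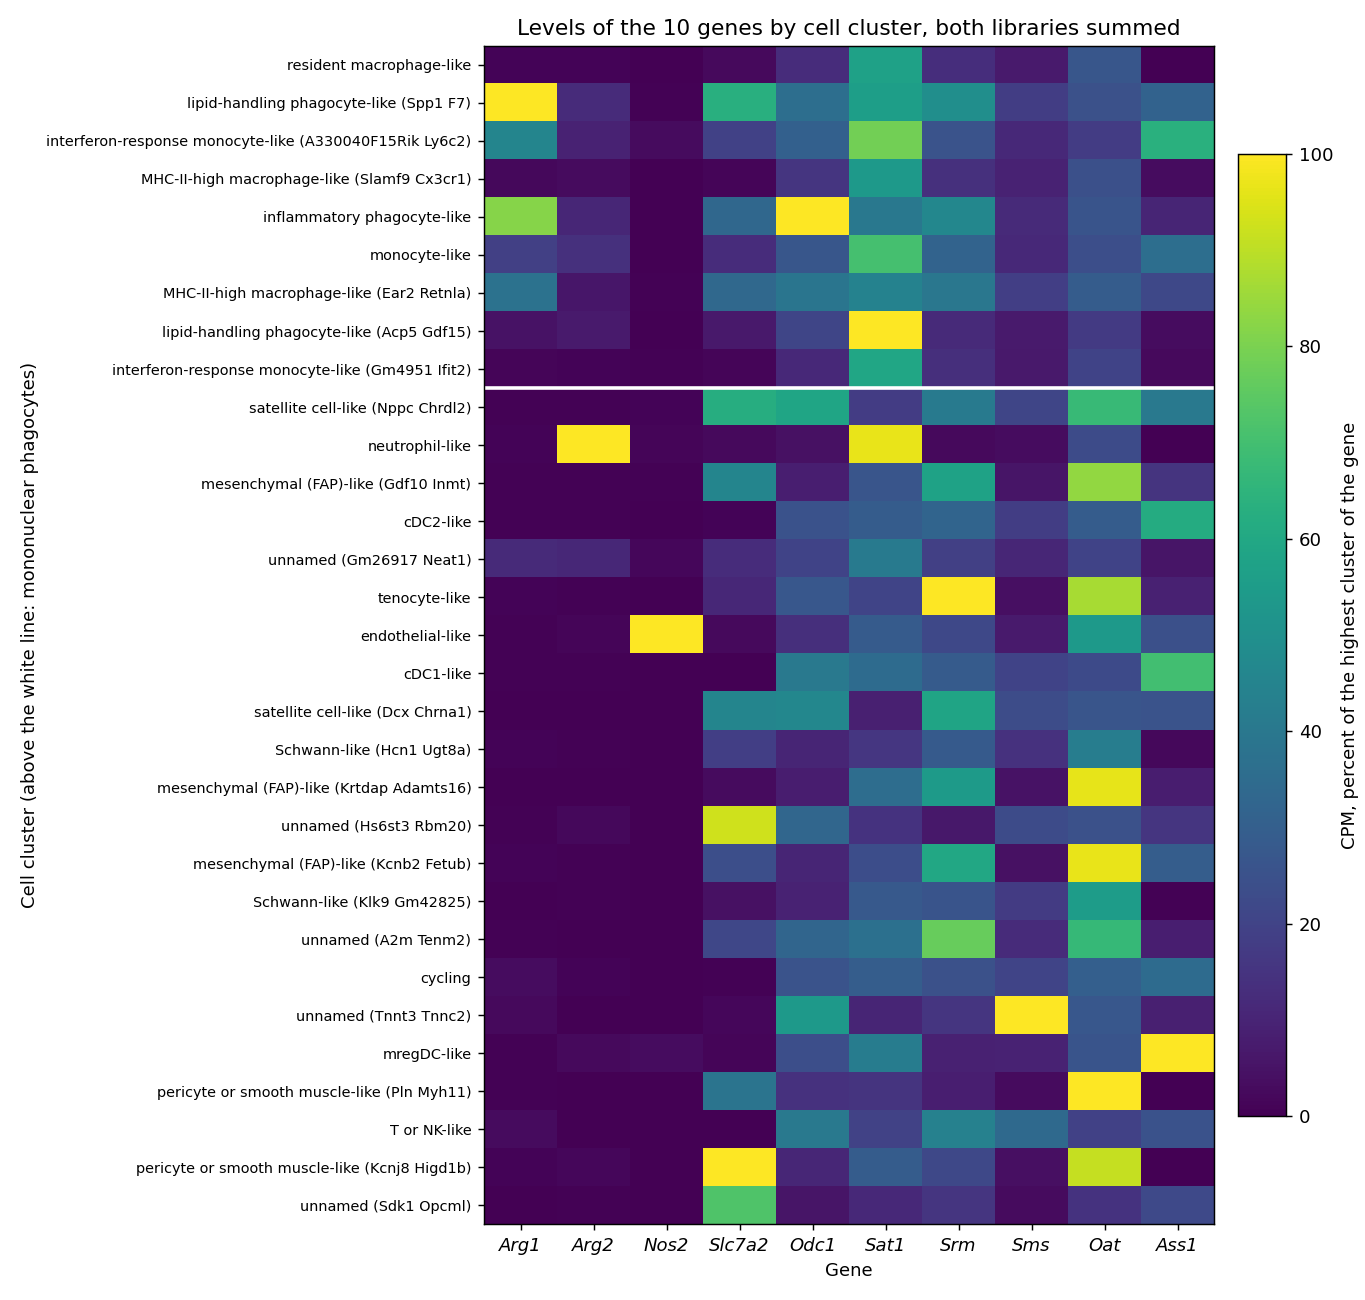
Each row is a cell cluster and each column 1 of the 10 genes, and the color gives the CPM of both libraries summed as a percent of the highest cluster of that gene. Arg1 was brightest in phagocyte clusters, Arg2 in neutrophil-like cells, Nos2 in endothelial-like cells and Sms in a cluster led by muscle fiber genes.

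Slc7a2, a transporter that brings arginine into cells, was spread over several lineages. Its highest level was 75.0 CPM in pericyte-like cells led by Kcnj8 (95% interval 47.0 to 114, from 22 UMIs), followed by 69.5 CPM in an unnamed cluster led by Hs6st3 and 54.4 CPM in an unnamed cluster led by Sdk1. Lipid-handling phagocyte-like cells led by Spp1 and F7 had 47.2 CPM and satellite-like cells led by Nppc had 46.8 CPM. Each of these 5 overlapped its neighbor in the order. Within phagocytes Slc7a2 was concentrated in few clusters.
In the lipid-handling cells led by Spp1 it was 31.7 CPM in the IgG library and 54.1 CPM in the SPP1-nAb library. In the inflammatory phagocyte-like cells, led by Cxcl3 and Nrg1, it was 7.20 and 31.9 CPM, from 28 and 332 UMIs, a log2 ratio of 2.15 (1.59 to 2.76). In macrophage-like cells rich in MHC-II genes and led by Ear2 and Retnla it was 12.3 and 32.3 CPM. The SPP1-nAb value was thus the higher of each pair in these 3 clusters, with intervals of the log2 ratio that did not include 0. These 3 clusters come from the same 2 libraries and are not replicates, and the intervals do not cover unevenness between cells. In the inflammatory cells the highest IgG cell held 9 of the 28 UMIs and the highest SPP1-nAb cell 22 of 332. In the lipid-handling cells led by Spp1 they held 51 of 280 and 17 of 1078.

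Arg1, the cytosolic arginase, was almost wholly a phagocyte gene in these cells. Of its 22796 UMIs in the IgG cells, 99.3% lay in mononuclear phagocytes, and of 92321 in the SPP1-nAb cells, 98.8%. Its level in phagocytes was 40.8-fold that in all other cells over both libraries. The libraries differed in this, with a log2 ratio of 6.49 (6.27 to 6.73) for IgG and 4.85 (4.77 to 4.94) for SPP1-nAb. With the libraries summed, Sat1 and Arg2 were the other members at least 1.5-fold higher in phagocytes, so that 3 of the 9 members with enough UMIs were higher and 1, Oat, was lower. Over all 15092 genes with enough UMIs, 16.0% were higher and 40.6% lower in phagocytes by that measure. Single libraries differed from the sum for some members. For Arg2 the ratio was past 1.5-fold in the sum (1.56-fold) and for IgG, while the SPP1-nAb library alone, at 52.0 CPM in phagocytes and 41.2 CPM in other cells, had a log2 ratio of 0.34 (0.24 to 0.43), under 1.5-fold. Slc7a2, within 1.5-fold in the sum, had a log2 ratio of -0.89 (-1.06 to -0.71) with IgG and 0.32 (0.18 to 0.46) with SPP1-nAb. Srm with IgG, at -0.80, and Ass1 with SPP1-nAb, at -0.64, were also past 1.5-fold lower in that library alone.

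Arg1 did not have its highest level in the inflammatory cells, although it and Odc1 were among the 10 genes that led that cluster. Over both libraries it stood at 2051 CPM in the lipid-handling cells led by Spp1 (2035 to 2068) and at 1682 CPM in the inflammatory cells (1661 to 1703). Lower levels followed, at 934 CPM in interferon-response monocyte-like cells led by Ly6c2, 776 CPM in the Ear2 macrophage-like cells and 388 CPM in monocyte-like cells. None of these neighbors overlapped within counting error in the summed counts, but the order below the leading pair differed between the libraries. With SPP1-nAb the Ear2 cells, at 1085 CPM, were above the Ly6c2 cells, at 1034 CPM, whereas with IgG the Ear2 cells, at 203 CPM, were below both the Ly6c2 cells, at 813 CPM, and the monocyte-like cells, at 318 CPM. The order of the leading pair depended on the clustering. With both libraries summed, lipid-handling cells had the highest level in 6 of 8 other clusterings, but in 2 of these no inflammatory group was found. In the other 4 the libraries differed, and in the IgG library alone the inflammatory cells were the higher of the pair, for example at 1409 against 1111 CPM without integration. Inflammatory cells came first with less than 5% mitochondrial UMIs. In the remaining one, at a finer resolution, the highest level of 3205 CPM was in 1370 cells led by Rnase2a, Ccl24, Arg1, F7, Slc7a2 and Chil3.

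Other phagocyte clusters had little Arg1. Resident macrophage-like cells, led by Lyve1, had 23.0 CPM. Macrophage-like cells rich in MHC-II genes and led by Slamf9 and Cx3cr1 were similarly low, at 5.66 CPM with IgG and 79.9 CPM with SPP1-nAb. A second lipid-handling cluster, led by Acp5 and Gdf15, held 96.3 CPM, so the marker-based class did not by itself go with a high Arg1 level.

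**Figure D2:**
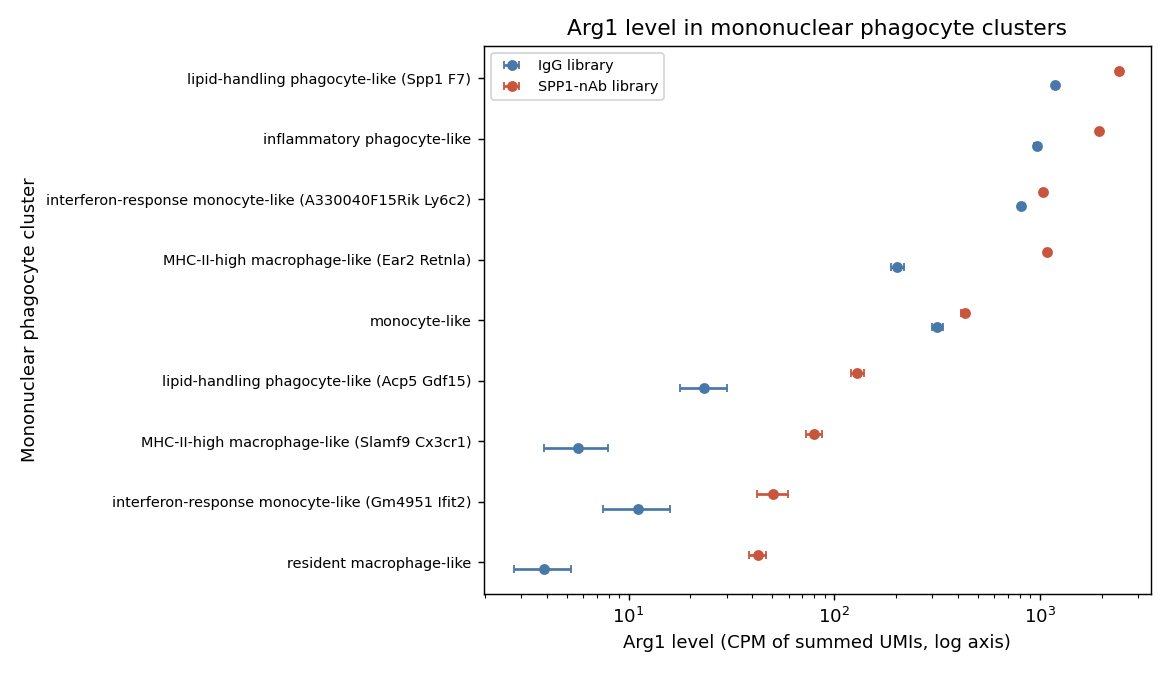
Points are the Arg1 level in CPM of each mononuclear phagocyte cluster on a log axis, blue for the IgG and red for the SPP1-nAb library, with exact 95% counting intervals. The red point lies to the right of the blue one in all 9 clusters, and the distance is smallest in interferon-response monocyte-like cells led by Ly6c2 (813 and 1034 CPM).

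Taking all phagocytes, Arg1 was 454 CPM in the IgG library (22637 UMIs) and 1164 CPM in the SPP1-nAb library (91172 UMIs). The log2 ratio was 1.36 (1.34 to 1.38). With 1 library per condition this difference has no replicate check. Within clusters the log2 ratio was 1.05 (1.02 to 1.08) in lipid-handling cells led by Spp1, where Arg1 was 1181 and 2438 CPM. It was 1.00 (0.95 to 1.05) in inflammatory cells, where Arg1 was 971 and 1948 CPM. The ratio was larger in the Ear2 macrophage-like cells, at 2.42 (2.31 to 2.52), and smaller in monocyte-like cells, at 0.44 (0.34 to 0.54). All 9 clusters had the same sign, but they come from the same 2 libraries and are not replicates. Some of them had little Arg1. Arg1 was 3.88 and 42.4 CPM in resident, 5.66 and 79.9 CPM in Slamf9 and 11.1 and 50.5 CPM in Gm4951 interferon-response cells. In the Acp5 lipid-handling cells it was 23.3 and 129 CPM. The ratio in the resident, Slamf9 and Acp5 cells was larger than in the Ear2 cells. Over all non-phagocytes Arg1 was 5.04 and 40.3 CPM, and the part of free RNA in these low clusters was not tested.

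Part of the ratio over all phagocytes went with which clusters the library held. Inflammatory cells were 3.66% of cells with IgG and 7.92% with SPP1-nAb, and lipid-handling cells led by Spp1 were 7.52% and 13.9%. With the SPP1-nAb levels placed in the IgG mix of clusters, the log2 ratio of Arg1 was 0.98 in place of 1.36, and with the IgG levels in the SPP1-nAb mix it was 0.34. Values in such a mix, for Arg1 and for the other members, were computed for the clustering used here only.

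The inflammatory cells held 16.6% of the Arg1 UMIs in the IgG library (16.1 to 17.0) and 21.9% in the SPP1-nAb library (21.7 to 22.2). Lipid-handling cells led by Spp1 held more, 45.7% and 52.6%. The share of the Ly6c2 interferon-response cells was 27.5% with IgG and 10.4% with SPP1-nAb. The size of the inflammatory group was not stable. With 20% of barcodes removed as doublets and at Leiden resolution 0.5 no such group was found. Where found, it ranged from 2534 cells in the clustering used here to 5837 cells when each cell was assigned by its own markers. The clustering used here gave the lowest shares, as the 7 other settings gave at least 26.7% with IgG and 27.4% with SPP1-nAb. With cells assigned by their own markers the shares were 56.0% and 48.9%, so the higher share in the SPP1-nAb library turned into a lower one. It did so at the finer resolution as well, at 31.1% and 28.5%. The log2 ratio of Arg1 within the group ranged down to 0.49, in the cells assigned by their own markers.

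Arg1 UMIs were unevenly divided among cells. In the lipid-handling cells led by Spp1, the median cell had 0 Arg1 UMIs with IgG and 5 with SPP1-nAb, and the highest cells had 117 and 270. In the inflammatory cells the medians were 0 and 4. The 10% of cells with the most Arg1 held 65.5% and 47.7% of its UMIs in the former cluster, and 62.8% and 48.2% in the latter.

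At an equal depth of 2000 UMIs per cell, reached by random thinning, 14.5% of IgG phagocytes (13.9 to 15.2) and 31.1% of SPP1-nAb phagocytes (30.4 to 31.9) had an Arg1 UMI, a difference of 16.6 percentage points (15.6 to 17.6). Thinning left out 744 IgG and 609 SPP1-nAb phagocytes with fewer UMIs. Without thinning, over all phagocytes, the shares were 17.5% and 38.5%. In the inflammatory cells the thinned shares were 39.2% and 61.0%, and in the lipid-handling cells led by Spp1 they were 37.7% and 58.2%. The Ly6c2 interferon-response cells differed by 2.26 points, with an interval (-0.91 to 5.42) that included 0.

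Cells that should lack Arg1 also had some of its UMIs, and the part of free RNA in the droplets in these was not tested. Schwann-like cells thinned in the same way had 0 of 355 cells with an Arg1 UMI in the IgG library, which allows a share of up to 0.845%, and 2.54% of 433 cells in the SPP1-nAb library. Unthinned median depths of the 2 Schwann-like clusters were 2622 and 2822 UMIs with IgG and 2982 and 3378 with SPP1-nAb. Of T or NK-like cells only 10 IgG cells reached 2000 UMIs, which is too few for a share. Resident macrophage-like cells had 0.675% with IgG and 5.04% with SPP1-nAb (4.16 to 6.03), and the latter interval overlapped that of Schwann-like cells (1.27 to 4.50). The Slamf9 macrophage-like cells, at 7.03% (5.77 to 8.46), and the Acp5 lipid-handling cells, at 12.4% (10.3 to 14.6), lay above that interval in the SPP1-nAb library. By level, however, the Slamf9 cells did not stand apart from all non-phagocytes there. They had 79.9 CPM, beside 70.4 CPM in T or NK-like cells (27 UMIs) and 97.9 CPM in the cluster led by Tnnt3 and Tnnc2 (35 UMIs). Over all non-phagocytes Arg1 was 5.04 CPM with IgG and 40.3 CPM with SPP1-nAb. With SPP1-nAb this sum includes the unnamed Gm26917 cluster, at 404 CPM (386 UMIs), and cycling cells, at 99.9 CPM (157 UMIs). It is therefore not a level of cells that should lack Arg1. When a free-RNA part of 1.17% and 2.17% of phagocyte UMIs, estimated from mesenchymal markers, was subtracted, the log2 ratio in phagocytes was 1.36. A part this small could move the ratio only slightly, and the low clusters were not treated in this way.

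**Figure D3:**
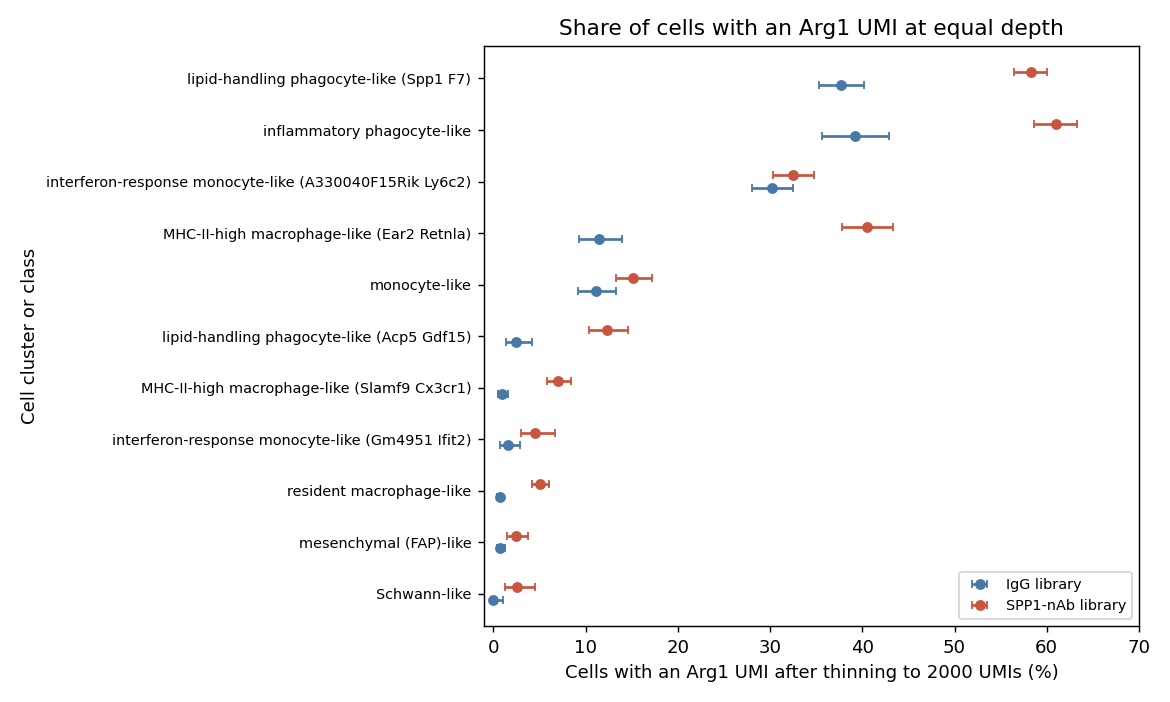
Points give the percent of cells with at least 1 Arg1 UMI after thinning every cell to 2000 UMIs, with exact 95% intervals, for the 9 phagocyte clusters and for mesenchymal-like and Schwann-like cells as a background. The inflammatory cells and the lipid-handling cells led by Spp1 reach 61.0% and 58.2% in the SPP1-nAb library, and Schwann-like cells stay at or under 2.54%.

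Arg2, the mitochondrial arginase, had its highest level in neutrophils. It had 530 CPM in neutrophil-like cells over both libraries (502 to 559), 17.6-fold its level in all other cells, and 468 CPM with IgG against 554 CPM with SPP1-nAb. The next cluster, monocyte-like cells, had 73.5 CPM. From there on, monocyte-like, lipid-handling, an unnamed Gm26917 cluster, inflammatory and Ly6c2 interferon-response cells overlapped neighbor by neighbor, down to 51.4 CPM. Phagocytes, which were most of the cells, held 74.9% of the Arg2 UMIs for IgG and 77.6% for SPP1-nAb. A large share there is not particular to Arg2. Sms, at 0.91 times the level of other cells over both libraries, had 60.0% and 70.3% of its UMIs in phagocytes. Neutrophil-like cells held 19.5% and 18.8% of the Arg2 UMIs.
In phagocytes Arg2 was 25.2 CPM with IgG (1255 UMIs) and 52.0 CPM with SPP1-nAb (4070 UMIs), a log2 ratio of 1.05 (0.96 to 1.14). It was higher with SPP1-nAb in all 9 phagocyte clusters, and in 8 of them the interval did not include 0. In neutrophil-like cells the log2 ratio was 0.24 (0.06 to 0.43). The 7 neutrophil markers also moved in the same phagocytes, from 69.1 to 89.2 CPM summed, with 1 marker at 0 in the IgG library, and their part in the Arg2 ratio was not tested.

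Nos2, the inducible nitric oxide synthase, was close to absent from phagocytes. Over both libraries it had 80 UMIs in all, of which 48 were in endothelial-like cells, at 42.8 CPM with IgG and 22.8 CPM with SPP1-nAb. Phagocytes had 11 UMIs among 11829 IgG cells and 14 among the 14876 given SPP1-nAb, which is a log2 ratio of -0.30 (-1.55 to 0.98). Of the UMIs in phagocytes, 17 were in the Ly6c2 interferon-response cells. A difference between the libraries was not detectable at this depth.

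Ass1, which joins citrulline and aspartate on the way back to arginine, was highest in dendritic cells and in some monocytes. It was 115 CPM in mregDC-like cells led by Il12b and Ccl22 (93.8 to 139), 80.2 CPM in cDC1-like, 72.9 CPM in Ly6c2 interferon-response and 70.6 CPM in cDC2-like cells, the last 3 overlapping. Resident macrophage-like cells had 8 UMIs in all. In phagocytes it was 28.8 CPM with IgG and 23.0 CPM with SPP1-nAb, a log2 ratio of -0.33 (-0.43 to -0.23). It was the only member above 100 UMIs with a negative log2 ratio there. The clusters with the most Ass1 among phagocytes had lower values with SPP1-nAb. It was 90.3 and 58.4 CPM in the Ly6c2 cells, a log2 ratio of -0.63 (-0.79 to -0.46), and 45.5 and 31.8 CPM in lipid-handling cells led by Spp1. In the inflammatory and Ear2 cells the intervals of the ratio included 0.

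Odc1, which makes the first polyamine from ornithine, was highest in the inflammatory cells, at 509 CPM over both libraries (497 to 521). Satellite-like cells led by Nppc came next at 299 CPM, and their interval (287 to 312) lay below that of the inflammatory cells and overlapped that of a cluster led by the fiber genes Tnnt3 and Tnnc2, at 273 CPM. Neutrophil-like cells, which had the most Arg2, had the least Odc1, at 23.4 CPM.
In phagocytes Odc1 was 129 CPM with IgG (6450 UMIs) and 203 CPM with SPP1-nAb (15898 UMIs), a log2 ratio of 0.65 (0.61 to 0.69). In the inflammatory cells it was 418 and 543 CPM, a log2 ratio of 0.38 (0.30 to 0.46), and in the lipid-handling cells led by Spp1 it was nearly level at 176 and 187 CPM. The ratio was widest in resident macrophage-like cells, at 1.04, and in the Slamf9 macrophage-like cells, at 1.01, and was 0.65 in the Gm4951 interferon-response cells, the phagocyte cluster with the least Odc1 over both libraries. In the IgG mix of clusters the log2 ratio was 0.40, under 1.5-fold. The lipid-handling cells led by Acp5 went the other way, at 121 and 99.5 CPM.

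Oat, which takes ornithine toward glutamate and proline, had UMIs in every cluster and its highest levels in stromal cells. It was 172 CPM in smooth muscle-like cells led by Pln, 167 and 166 CPM in the mesenchymal-like cells led by Kcnb2 and by Krtdap, and 149 CPM in tenocyte-like cells, all overlapping. Satellite-like cells led by Nppc had 116 CPM, Schwann-like cells led by Klk9 had 95.2 CPM and endothelial-like cells had 93.3 CPM. In phagocytes Oat was 38.8 and 42.8 CPM, against 103 and 96.0 CPM in other cells.

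Srm and Sms are the synthases for spermidine and spermine. Srm was highest in tenocyte-like cells, at 47.1 CPM (40.1 to 54.9), overlapping the unnamed A2m cluster at 36.1 CPM (25.9 to 49.0), and was 12.7 and 15.4 CPM in phagocytes, a log2 ratio of 0.28 (0.14 to 0.42). Sms was 505 CPM in the cluster led by Tnnt3 and Tnnc2 (453 to 561), with 509 CPM for IgG against 501 CPM for SPP1-nAb, and 8.05-fold its level in all other cells. That cluster had 105 IgG and 125 SPP1-nAb cells. In phagocytes Sms was 60.9 and 63.3 CPM, a log2 ratio of 0.05 (-0.01 to 0.12).

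Sat1, which acetylates spermidine and spermine and so starts their breakdown, had UMIs in every cluster. It was 1668 CPM in the lipid-handling cells led by Acp5 and 1612 CPM in neutrophil-like cells, whose intervals overlapped, and 145 CPM in satellite-like cells led by Dcx, the lowest cluster. In phagocytes it was 964 and 1028 CPM, a log2 ratio of 0.09 (0.08 to 0.11). Its ratio passed 1.5-fold in 1 phagocyte cluster, the Acp5 cells, at 1214 and 1873 CPM with a log2 ratio of 0.63 (0.57 to 0.68). The inflammatory cells, with the most Odc1, had the lowest Sat1 level of the 9 phagocyte clusters, at 619 and 683 CPM.

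**Figure D4:**
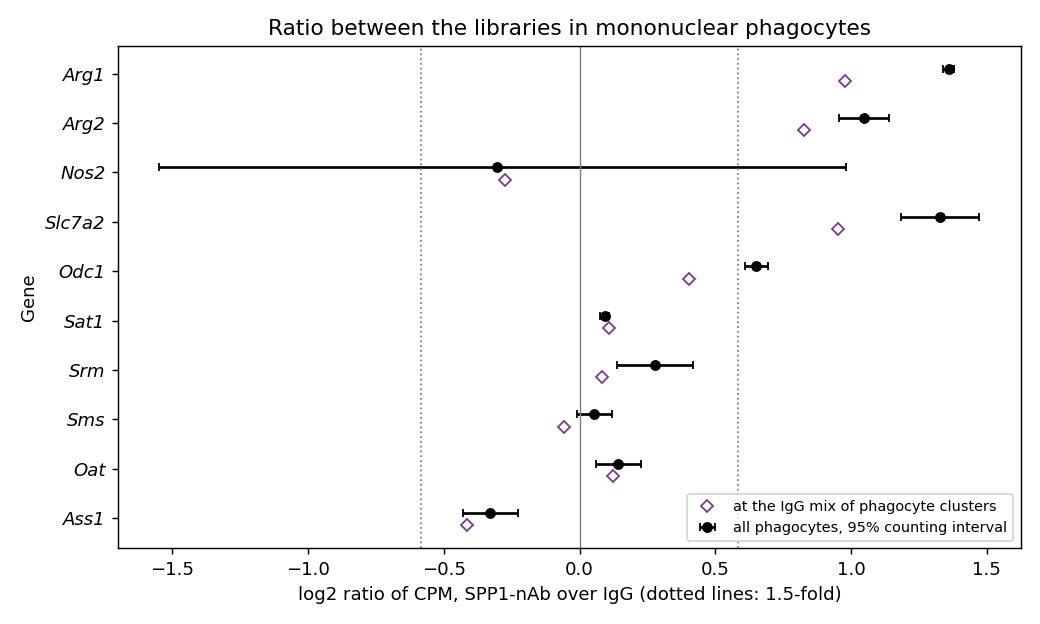
Black points give the log2 ratio of CPM, SPP1-nAb over IgG, in all mononuclear phagocytes with exact 95% counting intervals, and open diamonds the ratio in the IgG mix of phagocyte clusters. Arg1, Slc7a2, Arg2 and Odc1 lie beyond the dotted line at 1.5-fold, but the diamond of Odc1, at 0.40, does not, and the interval of Nos2 spans 0.

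Between the libraries, 4 of 9 members with at least 100 UMIs in phagocytes were at least 1.5-fold higher with SPP1-nAb, namely Arg1, Slc7a2, Arg2 and Odc1, and 0 were that much lower. Over all 12274 genes with enough UMIs in phagocytes, 2.45% were higher and 8.55% lower. The median log2 ratio was 0.28 over the 9 members and -0.04 over all these genes. Since the members had been selected on these libraries, nothing is read from the excess. Odc1 was no longer past 1.5-fold in the IgG mix of clusters.

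The other genes of the pathways were mostly level. Of 45 in the files, 35 had at least 100 UMIs in phagocytes, 0 were at least 1.5-fold higher and 1 was lower, with a median log2 ratio of 0.09. Most genes were level as well, since 2.45% of all tested genes were higher and 8.55% lower. The lower pathway gene was Slc18b1, a vesicular polyamine transporter, at 1.38 and 0.536 CPM from 69 and 42 UMIs. By group, 6 of 11 genes of arginine uptake and the urea cycle could be compared, 7 of 8 of nitric oxide synthesis, 7 of 8 of polyamine synthesis, 9 of 10 of polyamine breakdown, transport and use, 4 of 6 of proline and glutamate, where Pycr3 was not analysed here, and 2 of 3 of creatine and agmatine. The urea cycle genes Otc and Cps1, which the liver uses, had 0 UMIs in phagocytes.

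Against other cells, 9 of 37 pathway genes were at least 1.5-fold higher and 15 lower in phagocytes, beside 16.0% and 40.6% of all genes. Atp13a2, a lysosomal polyamine exporter, was 6.46-fold higher, at 66.7 CPM against 10.0 CPM with IgG and 72.7 CPM against 11.9 CPM with SPP1-nAb. Some pathway genes had a level in 1 class at least 5-fold that in all other cells, given as a description. Nos3, the endothelial nitric oxide synthase, was 92.6 CPM in endothelial-like and 1.04 CPM in all other cells. In mesenchymal-like cells this held for Ddah2 (156 CPM), Azin2 (14.6 CPM), Sat2 (7.50 CPM) and Pycr1 (14.3-fold), which makes proline, and in tenocyte-like cells for Ddah1 (70.9 CPM) and again Pycr1 (24.7 CPM). Slc18b1, Prodh and Slc7a6 passed it only in small unnamed clusters, with 9, 18 and 25 UMIs there, and Prodh also with 4 UMIs in a second one.

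Over all phagocytes, cells with an Arg1 UMI held Odc1, Arg2 and Slc7a2 more often than cells without, but not in every cluster. In IgG phagocytes thinned to 2000 UMIs, 28.6% of cells with an Arg1 UMI also had an Odc1 UMI (26.4 to 30.8), against 11.7% of those without, and in SPP1-nAb phagocytes these shares were 31.6% and 16.9%. Within single clusters the difference was mostly smaller. In the inflammatory cells of the SPP1-nAb library the shares were 50.3% (47.3 to 53.4) and 44.1% (40.2 to 47.9). These intervals overlapped, which does not make the shares equal. In Ly6c2 interferon-response cells the intervals lay apart, at 24.1% and 14.4% with IgG and 24.7% and 17.3% with SPP1-nAb. The order was reversed in the IgG Acp5 cells, at 14.3% and 18.6%, where 14 cells had an Arg1 UMI.
The lipid-handling cells differed more for Slc7a2. In SPP1-nAb lipid-handling cells led by Spp1, 11.4% of cells with an Arg1 UMI had a Slc7a2 UMI (9.91 to 12.9), and 1.98% of those without. In the IgG library the shares were 7.75% and 2.40%. For Arg2 the corresponding shares in these cells were 15.2% and 10.1% with SPP1-nAb and 10.8% and 6.04% with IgG. Other clusters differed by gene and by library. In the Ear2 cells the Arg2 shares were 6.80% with an Arg1 UMI and 7.15% without in the SPP1-nAb library, and 4.49% and 5.10% with IgG. For Slc7a2 the Ear2 shares were 9.51% and 2.52% with SPP1-nAb and 7.87% and 0.729% with IgG. In the inflammatory cells the Slc7a2 shares were 6.06% (4.69 to 7.69) and 1.80% (0.936 to 3.13) with SPP1-nAb. With IgG they were 0.709% and 0.686%, but only 5 of those 719 cells had a Slc7a2 UMI. In resident, Slamf9 and Gm4951 cells 0 cells had both an Arg1 and a Slc7a2 UMI. Only 7, 1 and 1 of these cells with IgG and 8, 2 and 0 with SPP1-nAb had a Slc7a2 UMI at all, too few for a comparison. Arg1 and Nos2 were seen together in 2 IgG and 1 SPP1-nAb phagocyte.

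**Figure D5:**
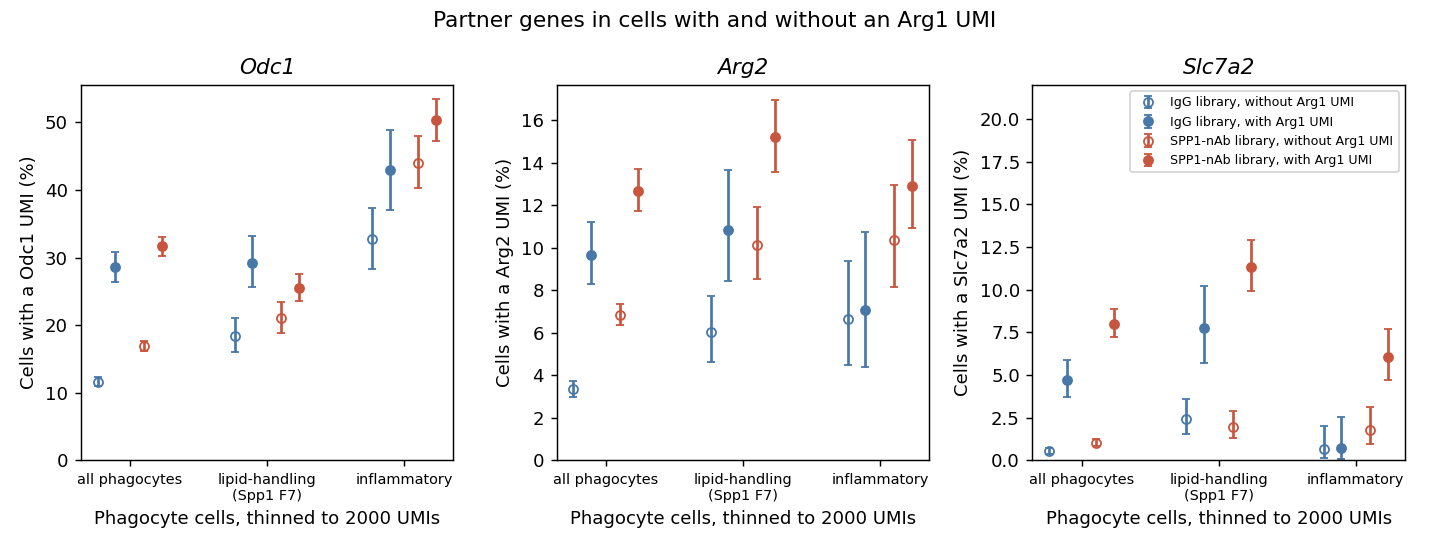
Points are the percent of phagocytes with an Odc1, Arg2 or Slc7a2 UMI among cells with (filled) and without (open) an Arg1 UMI, after thinning to 2000 UMIs, with exact 95% intervals. In lipid-handling cells led by Spp1 the filled Slc7a2 point of the SPP1-nAb library is at 11.4% and the open one at 1.98%.

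Across the 62 combinations of cluster and library, which share depth and library, the genes whose log2(CPM + 1) was most like that of Arg1 were Chil3 (Pearson r = 0.86), F7, Gm32089, Ccl24 and Rnase2a (0.80). Those most like Arg2 were Clec4e (0.87), Tarm1, Clec4d, Olr1 and F10, and those most like Nos2 were Dipk2b (0.93), Robo4, Grrp1, Btnl9 and Sox18, although Nos2 itself rested on 80 UMIs. The closest genes were less alike for Slc7a2, with S1pr3 at 0.72 followed by Airn, Rnf217, Dennd2a and Tmem65, and for Odc1, with Akr1b3 at 0.68 followed by Psma3, Ddx21, Eif2s2 and Eef1g. Among the members themselves, the closest pairs were Odc1 and Sms (0.65) and Arg1 and Arg2 (0.64). These are descriptions over clusters that are not independent samples.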

How the data were processed

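Droplet scRNA-Seq of 2 mouse muscle libraries, 1 per antibody, was used. The authors made the deposited counts, whole UMIs per gene and barcode, with 10x Genomics software. It is given as Cell Ranger 8.0.0 in the submitters' processing notes and as 9.0.1 in the file header. Those notes give the genome build as GRCm39, while the study's methods name both GRCm39 and GRCm38. No other normalization was applied before deposit. Barcodes with under 200 genes or over 10% mitochondrial UMIs were removed, followed by the 10% of barcodes with the highest simulated-doublet score. A set of 2000 variable genes, without the 10 member genes, gave 30 principal components, integrated by a Harmony-type correction and clustered (Leiden resolution 1, leidenalg 0.10.2, igraph 0.11.9). Clusters were named from at least 3 markers raised 1.5-fold and detected in 20% of their cells, and these thresholds were set after clusters had been seen. Computations used Python 3.11.15, numpy 2.4.6 and scipy 1.17.1, and were tested on simulated data.

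Counts were summed per cluster and library. With 1 library per condition no test was run, and exact Poisson, binomial and Clopper-Pearson 95% intervals cover counting error only. A count of 0 was given a limit of 3 counts. The members and lists were chosen with earlier results of these data known. All 10 members were named. Further pathway genes were named when past 1.5-fold between the libraries in phagocytes with 100 UMIs, or at 5-fold in a cell class, and so were the 5 genes most alike to 5 members. Shares of cells used random thinning to 2000 UMIs. Alternatives changed the cell filters, doublet share, integration, resolution, variable genes, gating, free RNA, scaling and thinning.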

Additional observations from a re-analysis of the deposited data

Results flagged for a closer look

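These values lay in clusters that were not counted among the phagocyte clusters. Only values at least 1.5-fold higher in the SPP1-nAb library, with intervals apart, were flagged there. Their shared direction was therefore set by that rule and is not a result. Arg1 was 404 CPM (386 UMIs) with SPP1-nAb and 30.0 CPM (22 UMIs) with IgG in the unnamed cluster led by Gm26917 and Neat1. Arg1 was 99.9 CPM with SPP1-nAb and 6.01 CPM with IgG in cycling cells. Odc1 was 159.6 CPM with SPP1-nAb and 75.8 CPM with IgG in the same cycling cells. In the cluster led by Tnnt3 and Tnnc2, Odc1 was 329.96 CPM with SPP1-nAb against 210.4 CPM with IgG. Sat1 there was 229 CPM (82 UMIs) against 113 CPM (37 UMIs).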

How the results depend on the processing

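The direction of the Arg1 difference in all phagocytes held under all 13 alternatives, and 3 other members lay past 1.5-fold upward in each setting that gave this count. The log2 ratio of 1.36 was 1.33 with less than 5% mitochondrial UMIs, 1.39 with 20% of barcodes removed as doublets, 1.40 rescaled by the median gene, 1.54 as a mean over cells and 0.98 in the IgG mix of clusters. The difference in cells with an Arg1 UMI, 16.6 points, was 17.7 without doublet removal, 14.6 thinned to 1000 UMIs and 21.01 without thinning. Results on the inflammatory cells moved more. Their log2 ratio of 1.00 and their shares of Arg1 UMIs (16.6% IgG, 21.9% SPP1-nAb) became 0.76, 26.7% and 27.4% with a stricter minimum of genes per barcode, 0.77, 34.6% and 36.7% with less than 5% mitochondrial UMIs, 0.61, 27.4% and 32.3% without integration, 0.69, 31.1% and 28.5% at Leiden resolution 2, 0.77, 30.9% and 31.2% with the members among the variable genes, and 0.49, 56.0% and 48.9% with cells gated by their own markers. Without doublet removal the shares were 28.9% and 33.3%, and as a mean over cells the ratio was 1.06. No inflammatory group was found at Leiden resolution 0.5 or with 20% removed as doublets, so these gave no value. The cause was not tested. Of 99 values for the other members, 2 moved and 0 changed sign. The cluster mix is not among these and was computed for the main clustering only. In the IgG mix Sms changed sign, from 0.05 to -0.06, Srm went from 0.28 to 0.08 and Odc1 from 0.65 to 0.40, under 1.5-fold. The ranking of clusters by Arg1 across clusterings was chosen after seeing the data. No paired analysis was possible because each condition had 1 library and no test was run. Counting intervals do not cover variation between mice, and Nos2, with 80 UMIs, limits any statement on it.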

Other observations

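Other genes of the pathways also differed in level between phagocytes and the other cells. Paox and Smox, oxidases of polyamine breakdown, were 4.13-fold and 2.51-fold higher in phagocytes. Gatm, the first enzyme of creatine synthesis, which uses arginine, was 3.85-fold higher, at 308 CPM in IgG phagocytes against 75.3 CPM in other IgG cells. Slc7a7, a cationic amino acid transporter, was 3.22-fold higher and Slc7a1, another one, was 0.64 times the level of other cells. These genes were chosen after their values were seen.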
